A study of Mus musculus with 163 samples.

Results

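The genes described here are 34 homeobox transcription factors among the 12187 genes measured in single hypothalamic cells. They were chosen by the start of their gene symbols, with earlier results of these data known. They are the *Lhx*, *Nkx*, *Dlx*, sine oculis-type, POU-type (Pou2f to Pou6f), *Meis*, *Pbx*, *Onecut*, *Zfhx*, *Tshz*, *Satb*, *Cux* and *Adnp* genes together with *Homez* and *Hmbox1*. *Six6* and *Nkx2-1*, whose symbols also match, were left out by the same choice. No *Hox* or *Irx* gene was in the table. All cells came from young adult male mice of the strain C57/BL6 Tg(Pomc-EGFP)1Low, which had free access to food and received no treatment. In these mice enhanced GFP is driven by regulatory sequences of *Pomc*, the precursor of the melanocortin peptides, so that a cell was sorted for its GFP and not for its *Pomc* mRNA. The medial basal hypothalamus was dissociated with papain, single cells were gated for size, singlets and GFP, and each cell gave 1 SMART-Seq v4 and Nextera XT library read from 1 end on a HiSeq.

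The labels tie no cell to an animal, plate or batch, and all cells together were therefore treated as 1 sample, with SDs over cells and no p-values. Values are in log2RPM, the log2 of the reads of a gene after scaling to a common library total (RPM), and the lowest value in every cell, -0.91 log2RPM, stands for 0 reads. Expression means 5 RPM or more in a cell (2.32 log2RPM). Cells were split by the melanocortin antagonist *Agrp* and by *Pomc*. The split gave 48 cells with *Agrp* at 10 log2RPM or more (Agrp-high), 34 of the remaining cells with *Pomc* at 12 log2RPM or more (Pomc-high), and 81 cells under both limits (low-low). The cells next to the limits had *Agrp* of 10.12 and 9.99 log2RPM, and *Pomc* of 12.20 and 11.91 log2RPM. Members were higher or lower in a set where the means of log2RPM differed by 1 or more.

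Depth over the measured genes ran from 1.46 to 41.9 M reads per cell, with medians of 8.45 M in Agrp-high, 8.13 M in Pomc-high and 7.88 M in low-low cells. Of the 8 neuronal genes measured, *Snap25*, *Stmn2* and *Map2* were expressed in every cell, and the others were not. *Syt1* was expressed in 46 Agrp-high, 20 Pomc-high and 79 low-low cells, and *Rbfox3* in 29, 26 and 66. The summed level of the 8 genes was lowest in a low-low cell, at 163.5 RPM, where the median of low-low cells was 4815 RPM. No gene of the microglial or endothelial lists was in the table, and 2 astrocyte genes were, so no cell could reach 3 markers of these types. The summed level of the 2 astrocyte genes ran from 0 to 2674 RPM over all cells, with a median of 0.41 RPM. For the 3 pituitary genes measured it ran from 0.14 to 17697 RPM, with a median of 2.97 RPM. Reads of the myelin gene *Mbp* were at 5 RPM or more in 41, 25 and 60 cells of the 3 sets. At least 3 of the 5 measured oligodendrocyte markers stood at 6 log2RPM or more in 4 cells, of which 2 were Agrp-high and 2 low-low. A further 3 low-low cells, and 1 of those 4, held both measured markers of oligodendrocyte precursors, *Pdgfra* and *Olig1*. Cells carry numbers in their labels, and because earlier results of these data differed between the ranges 1 to 66, 67 to 98 and 99 upward, values are also given within these ranges, which no label calls a batch. Agrp-high cells numbered 32, 5 and 11 in them, Pomc-high cells 8, 9 and 17, and low-low cells 26, 18 and 37.

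Homeobox proteins are transcription factors that bind DNA through a homeodomain, a fold of helices that reads short AT-rich sequences. In the embryo, overlapping domains of homeobox genes divide the brain into regions and set which neuron types arise in each. In the hypothalamus many stay on in mature neurons, where combinations of them go with particular peptides and transmitters. Members of the *Pbx* and *Meis* families act mainly as partners that raise the DNA binding of other homeodomain proteins.

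Most members were present in a minority of the cells. Of the 34, 4 were expressed in at least 80% of cells, which is 11.8% of the members and compares with 31.9% of all genes. At the other end, 7 members (20.6%) reached fewer than 10% of cells, against 7.57% of all genes. A cell expressed 12.7 ± 2.63 members (SD over all cells), with a lowest value of 6 and a highest of 22, and the median was 13 in each of the 3 sets. The median number of these genes per cell was thus the same in the 3 sets, while the genes behind it differed as described next.

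**Figure D1:**
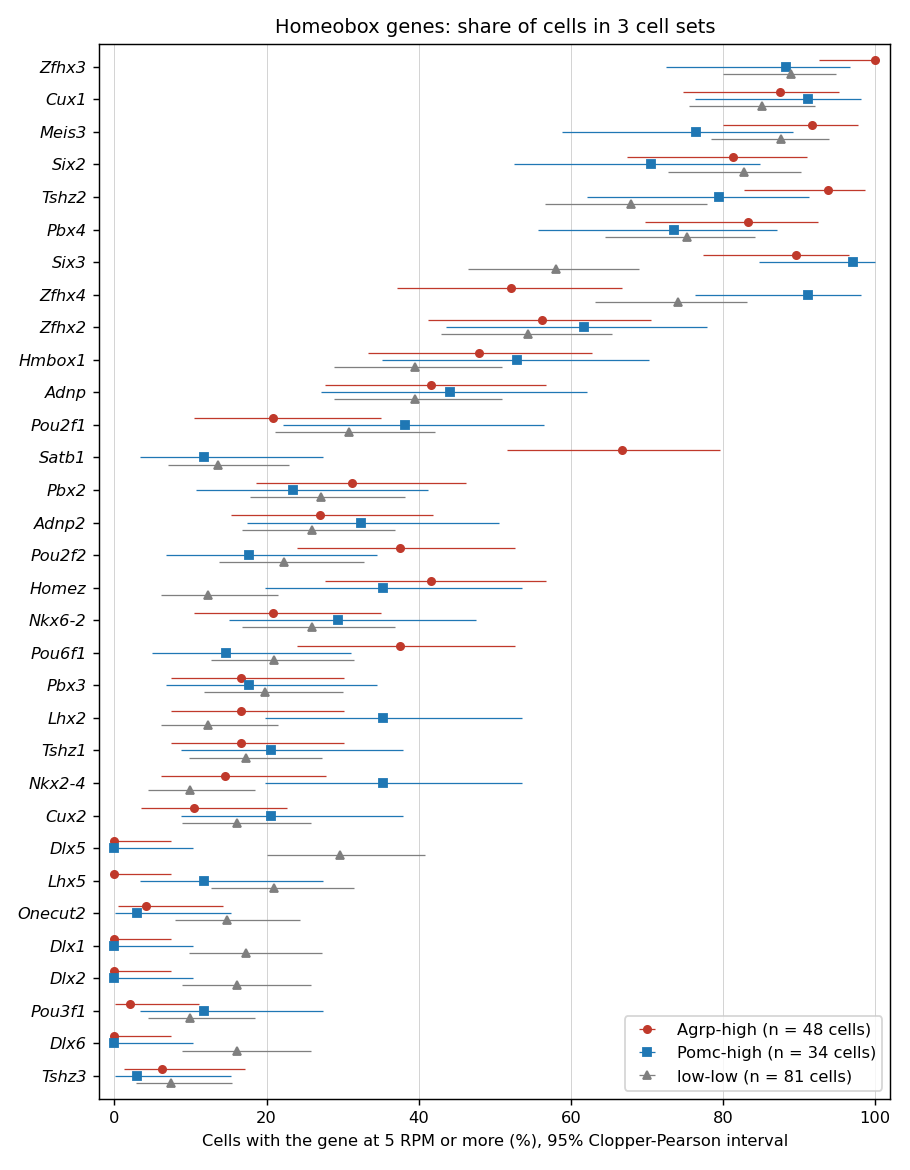
Share of cells (in percent, horizontal axis) that expressed each of the homeobox genes shown at 5 RPM or more in Agrp-high (48), Pomc-high (34) and low-low (81) cells; lines are exact 95% binomial (Clopper-Pearson) intervals for counting error. *Satb1* stands out to the right in Agrp-high cells at 66.7%, *Six3* lies at 97.1% in Pomc-high and 58% in low-low cells, and the 4 *Dlx* genes lie at 0 in both peptide-rich sets.

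Among the most widely expressed members were *Zfhx3* (150 cells, 92%), *Cux1* (87.1% of cells) and *Meis3* (86.5% of cells). *Zfhx3* is a very large factor with several homeodomains and zinc fingers that acts in the circadian clock of the suprachiasmatic nucleus. *Cux1* is a Cut-type factor best known from upper layers of the cortex. Per length of exon, *Meis3* had the highest median level of all members, at 19.2 RPM per kb. It was followed by *Pbx4* at 14.4 and *Six3* at 8.29 RPM per kb (medians over all cells). *Meis3* and *Pbx4*, partner genes of the TALE class, therefore held the highest levels per length.

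*Pbx* genes were used unequally. *Pbx4* was expressed in 77.3% of cells, *Pbx2* in 45 cells (27.6%) and *Pbx3* in 30 cells (18.4%). *Pbx2* met *Pbx4* in 33 cells (73.3% of the *Pbx2* cells) and *Pbx3* met *Pbx4* in 23 cells (76.7% of the *Pbx3* cells), whereas *Pbx2* and *Pbx3* met in 4 cells. None of these genes nor *Meis3* differed by 1 or more between Agrp-high and all other cells or between Pomc-high and low-low cells, and *Meis3* came closest, with a difference of -0.89 log2RPM between Pomc-high and low-low cells.

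*Satb1* (chr17:51736187-51833290 on GRCm38, minus strand) showed the largest difference of the members between Agrp-high and the other cells. It encodes a chromatin organiser with a divergent homeodomain that shapes gene loops in T cells and in cortical interneurons. In Agrp-high cells its values ran from -0.91 to 6.90 with a median of 3.99 log2RPM. In the other cells the range was -0.91 to 6.57 and the median -0.46 log2RPM, so the ranges overlapped and the median was higher in Agrp-high cells. It was expressed in 32 of 48 Agrp-high cells (66.7%, 95% interval 51.6% to 79.6%), against 4 of 34 Pomc-high (11.8%, 3.30% to 27.5%) and 11 of 81 low-low cells (13.6%, 6.98% to 23%). The means were 3.25 ± 2.68 and 0.38 ± 1.97 log2RPM, a difference of 2.87. *Satb1* split the Agrp-high cells themselves, since 16 of the 48 were without it. Those 16 did not stand apart in *Pomc*, whose mean was 6.42 ± 0.80 log2RPM in them and 6.41 ± 0.90 log2RPM in the 32 with *Satb1*. In the same order, the peptide gene *Npy* had means of 12.57 ± 1.16 and 13.36 ± 0.71 log2RPM. *Agrp* had 11.44 ± 0.60 and 11.80 ± 0.70, and *Six3* 5.21 ± 2.08 and 4.38 ± 1.73 log2RPM. The *Satb1* difference between Agrp-high and the other cells was present in each range of cell numbers, with 2.53, 3.48 and 2.89 log2RPM. The middle value rests on 5 Agrp-high cells.

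Of the 34 members, 4 were higher in Agrp-high than in the other cells, against 8.65% of all genes, and 3 were lower, against 2.94% of all genes. The median difference was -0.16 log2RPM over the members and 0.19 log2RPM over all genes. The other 3 that were higher were *Zfhx3*, *Homez* and *Tshz2*. *Zfhx3* was expressed in all 48 Agrp-high cells, from 4.18 to 7.80 with a median of 6.28 log2RPM, and in 88.7% of the others, from -0.58 to 8.86 with a median of 5.46 log2RPM. Its spread was smaller in Agrp-high cells (6.23 ± 0.85 log2RPM) than in the others (5.05 ± 2.0 log2RPM), and the means differed by 1.18. Within the ranges of cell numbers this difference was 1.33, 1.06 and 0.63 log2RPM, so it fell under 1 in the last.

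*Tshz2*, a teashirt-type zinc finger and homeodomain factor, was expressed in 45 of 48 Agrp-high cells and in 82 others, and the means of 4.70 ± 1.54 and 3.64 ± 2.50 log2RPM differed by 1.06. The *Tshz2* difference was 0.82, 1.36 and 0.82 log2RPM in the ranges of cell numbers, and 0.97 log2RPM without the 4 cells with oligodendrocyte markers, so it was past the limit in the middle range alone, with 5 Agrp-high cells. *Homez*, a factor with leucine zippers beside its homeodomains, was expressed in 20 of 48 Agrp-high and 22 other cells, with a difference of 1.07 log2RPM, which was 0.997 and 0.92 log2RPM with the *Agrp* limit at 9 and 11. The *Homez* value moved strongly with cell number, from 0.46 log2RPM in the lowest range to 2.75 log2RPM in the highest.

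*Zfhx4* moved the opposite way to its paralogue *Zfhx3*. Like *Zfhx3* it carries several homeodomains and zinc fingers, and it is expressed in developing brain and muscle. Its values ran from -0.91 to 7.43 with a median of 2.45 log2RPM in Agrp-high cells, and from -0.91 to 10.28 with a median of 5.87 log2RPM in the others. It was expressed in 25 of 48 Agrp-high cells (52.1%, 37.2% to 66.7%), 31 of 34 Pomc-high cells (91.2%, 76.3% to 98.1%) and 60 of 81 low-low cells (74.1%, 63.1% to 83.2%). The means of 2.98 ± 2.57 and 4.95 ± 2.66 log2RPM gave a difference of -1.97. The difference was -1.98, -4.37 and -3.13 log2RPM within the ranges of cell numbers, and 0 of the 5 Agrp-high cells in the middle range expressed *Zfhx4*. The third paralogue, *Zfhx2*, was expressed in 27, 21 and 44 cells of the 3 sets, and its means differed by 0.01 log2RPM between Agrp-high and other cells. *Dlx5* and *Lhx5*, the other members lower in Agrp-high cells, were expressed in 0 of those 48 cells and are described with the low-low cells below.

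**Figure D2:**
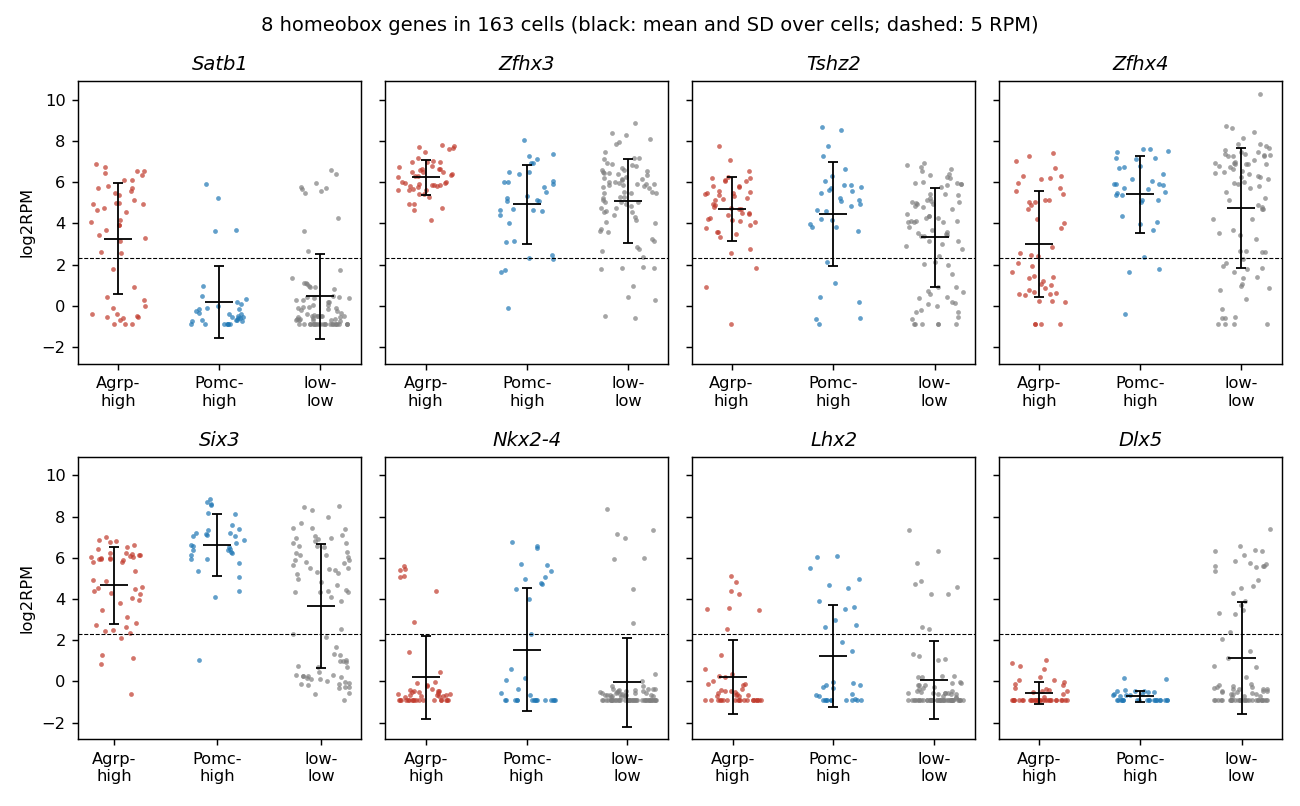
log2RPM (vertical axis) of 8 homeobox genes in each cell, by cell set; black lines are the mean and SD over cells, and the dashed line marks 5 RPM. *Satb1* was above the line in 32 of 48 Agrp-high cells, *Six3* in 33 of 34 Pomc-high cells and *Dlx5* in low-low cells alone (24 of 81).

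Among the cells with low *Agrp*, *Six3* separated Pomc-high from low-low cells most. *Six3* is a sine oculis-type factor needed for the forebrain and the eye, and in the hypothalamus it is expressed from early development on. Its values in Pomc-high cells ran from 1.06 to 8.84 with a median of 6.68 log2RPM, and in low-low cells from -0.91 to 8.50 with a median of 4.39 log2RPM. It was expressed in 33 of 34 Pomc-high cells (97.1%, 84.7% to 99.9%) and in 47 of 81 low-low cells (58%, 46.5% to 68.9%). The means of 6.61 ± 1.49 and 3.66 ± 2.99 log2RPM differed by 2.95. Agrp-high cells lay between them, with 43 of 48 cells and a mean of 4.66 ± 1.88 log2RPM. The difference between Pomc-high and low-low cells was 3.17, 4.65 and 1.91 log2RPM in the ranges of cell numbers. Thus 34 of the 81 low-low cells were below 5 RPM for *Six3* and 1 of the 34 Pomc-high cells was.

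In Pomc-high cells 5 members were higher than in low-low cells, against 4.5% of all genes, and 3 were lower, against 5.1% of all genes. The 4 others that were higher were *Nkx2-4*, *Homez*, *Lhx2* and *Tshz2*. *Nkx2-4*, a close relative of the hypothalamic factor *Nkx2-1*, was expressed in 12 of 34 Pomc-high cells (35.3%, 19.7% to 53.5%) and 8 of 81 low-low cells (9.88%, 4.36% to 18.5%), and the means of 1.54 ± 2.99 and -0.05 ± 2.14 log2RPM differed by 1.60. *Lhx2*, a LIM homeodomain factor of the developing eye, cortex and hypothalamus, was expressed in 12 of 34 and 10 of 81 cells, and the means of 1.22 ± 2.47 and 0.08 ± 1.90 log2RPM differed by 1.15. For both genes most Pomc-high cells thus had no call, and the highest values of each were in low-low cells (8.35 and 7.36 log2RPM).

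*Six3* was also expressed in 26 of 27 *Nkx2-4* cells and 27 of 30 *Lhx2* cells (96.3% and 90%), and in 75.5% of all cells. Its share was 89.6% in Agrp-high, 97.1% in Pomc-high and 58% in low-low cells. In the same order, *Nkx2-4* was in 7, 12 and 8 cells and *Lhx2* in 8, 12 and 10. How far the sets alone account for these overlaps was not tested. The *Nkx2-4* and *Lhx2* cells overlapped in 14 cells, 51.9% of the former and 46.7% of the latter. The *Nkx2-4* difference was 3.0, 1.96 and 0.66 log2RPM from the lowest to the highest range of cell numbers. The *Lhx2* difference likewise went from 1.96 and 1.69 to 0.53 log2RPM. In the range with most Pomc-high cells (17) neither gene therefore passed the limit. Of tanycyte markers, 4 of 6 were measured (*Rax*, *Vim*, *Col23a1* and *Rarres2*), and their summed level ran from 0 to 311.2 RPM with a median of 21.6 RPM in Pomc-high cells, and from 0 to 252.8 RPM with a median of 2.76 RPM in low-low cells. The part of such RNA in these differences was not tested. In Pomc-high and low-low cells, *Vim* was expressed in 15 of 34 and 11 of 81, *Rax* in 6 and 9, *Col23a1* in 2 and 6, and *Rarres2* in 2 and 20 cells, so that *Vim* was more frequent in Pomc-high and *Rarres2* in low-low cells. *Homez* and *Tshz2* differed by 1.42 and 1.12 log2RPM, and *Tshz2* fell to 0.49 log2RPM, and *Lhx2* to 0.75 log2RPM, when the *Pomc* limit was set at 11 in place of 12. With 5 RPM added to every value before the logarithm, *Six3* (2.04 log2RPM) was the only member still past the limit here, and in Agrp-high cells *Satb1* (1.44 log2RPM) and *Zfhx4* (-1.39 log2RPM) were.

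**Figure D3:**
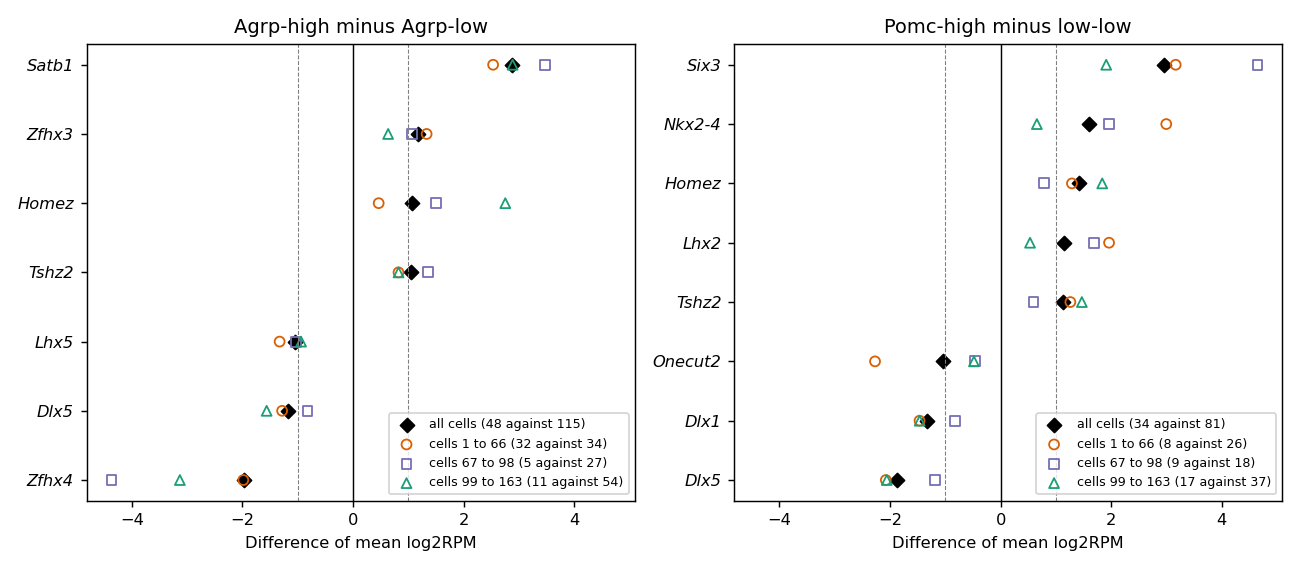
Difference of mean log2RPM (horizontal axis) for each homeobox gene that differed by 1 or more, for all cells and within each range of cell numbers; the numbers of cells compared are in the legends, and dashed lines mark -1 and 1. Every one of the 15 differences keeps its sign in the 3 ranges, while their size varies, as for *Six3* from 4.65 to 1.91 and for *Zfhx4* from -1.98 to -4.37.

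The members lower in Pomc-high cells were *Dlx5*, *Dlx1* and *Onecut2*, and all 3 were found mainly in low-low cells. *Dlx* genes encode distal-less factors that drive the production of GABAergic neurons in the ventral forebrain, in part by switching on the glutamate decarboxylase genes. They lie in pairs on the chromosomes. On GRCm38, *Dlx1* (chr2:71528113-71533981, plus strand) and *Dlx2* (chr2:71543408-71546754, minus strand) face each other, as do *Dlx6* (chr6:6863334-6868568, plus strand) and *Dlx5* (chr6:6877805-6882085, minus strand). At least 1 of these 4 genes was expressed in 28 cells, and all 28 were low-low cells (34.6% of 81, 95% interval 24.3% to 46%). Of the 82 Agrp-high and Pomc-high cells 0 expressed a *Dlx* gene, which allows a share of up to 3.66%, and the highest *Dlx* value there was 1.40 log2RPM. The mean of Pomc-high minus that of low-low cells was -1.87 log2RPM for *Dlx5* and -1.34 for *Dlx1*, and for *Dlx2* and *Dlx6*, under the limit, it was -0.92 and -0.79 log2RPM. The value for *Dlx5* in Agrp-high cells, -1.17 log2RPM, was taken against low-low and Pomc-high cells together. It shares the low-low cells with the values above and is no separate evidence. Below the cut-off the separation was not clean. *Dlx* reads of some kind were present in 75 of the 82 cells, and at a cut-off of 1 RPM 22 of the 82 cells held a *Dlx* gene, out of 71 cells in all.

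The *Dlx* genes were mostly found in combination. *Dlx5* was expressed in 24 cells, *Dlx1* in 14, *Dlx2* in 13 and *Dlx6* in 13. Of the 28 cells, 4 expressed 1 of the genes, 13 expressed 2, 10 expressed 3 and 1 expressed all 4. The overlap was not confined to neighbours on a chromosome. *Dlx1* and *Dlx2* met in 7 cells (50.0% of the *Dlx1* cells), whereas *Dlx1* met *Dlx5* of the other pair in 11 cells (78.6% of the *Dlx1* cells). *Dlx5* and *Dlx6* met in 10 cells (76.9% of the *Dlx6* cells). In cells that expressed them, *Dlx1* averaged 5.89 ± 1.10, *Dlx5* 5.10 ± 1.27, *Dlx2* 4.80 ± 0.81 and *Dlx6* 3.67 ± 0.78 log2RPM (n = 14, 24, 13 and 13 cells). The *Dlx* cells were spread over the ranges of cell numbers, with 9 of 26, 5 of 18 and 14 of 37 low-low cells. None of them was a cell with oligodendrocyte or precursor markers.

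The promoters of *Dlx1* and *Dlx2* are shown for a pair of neighbours found in low-low cells alone, followed by those of *Satb1* and *Six3*, the members with the largest differences between Agrp-high and all other cells and between Pomc-high and low-low cells. Each is the 300-base window that starts upstream of and ends just behind a start site in RefSeq (GRCm38.p6), 5′ to 3′ on the strand of the gene, with every CG dinucleotide in capitals. *Dlx1* lies at chr2:71529195-71529494 on the plus strand, *Dlx2* at chr2:71546705-71547004 on the minus strand, *Satb1* at chr17:51833241-51833540 on the minus strand and *Six3* at chr17:85620584-85620883 on the plus strand. For *Satb1*, which has 5 windows in the table, the one farthest upstream is given.
Dlx1: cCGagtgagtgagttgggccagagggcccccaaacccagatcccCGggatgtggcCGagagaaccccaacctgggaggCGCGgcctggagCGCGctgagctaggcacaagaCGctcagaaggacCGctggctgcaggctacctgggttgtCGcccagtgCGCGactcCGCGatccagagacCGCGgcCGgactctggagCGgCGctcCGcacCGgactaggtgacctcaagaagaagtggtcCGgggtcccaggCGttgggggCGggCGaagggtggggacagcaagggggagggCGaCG
Dlx2: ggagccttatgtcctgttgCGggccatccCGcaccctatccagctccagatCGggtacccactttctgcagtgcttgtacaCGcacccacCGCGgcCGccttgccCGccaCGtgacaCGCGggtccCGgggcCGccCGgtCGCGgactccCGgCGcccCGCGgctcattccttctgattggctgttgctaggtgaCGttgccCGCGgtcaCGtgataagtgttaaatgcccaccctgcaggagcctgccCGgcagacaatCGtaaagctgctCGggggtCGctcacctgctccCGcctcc
Satb1: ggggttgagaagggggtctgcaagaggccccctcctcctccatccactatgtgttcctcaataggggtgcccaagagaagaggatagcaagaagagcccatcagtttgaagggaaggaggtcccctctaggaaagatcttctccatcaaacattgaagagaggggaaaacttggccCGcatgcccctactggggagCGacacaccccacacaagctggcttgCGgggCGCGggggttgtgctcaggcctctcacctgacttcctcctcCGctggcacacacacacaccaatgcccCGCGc
Six3: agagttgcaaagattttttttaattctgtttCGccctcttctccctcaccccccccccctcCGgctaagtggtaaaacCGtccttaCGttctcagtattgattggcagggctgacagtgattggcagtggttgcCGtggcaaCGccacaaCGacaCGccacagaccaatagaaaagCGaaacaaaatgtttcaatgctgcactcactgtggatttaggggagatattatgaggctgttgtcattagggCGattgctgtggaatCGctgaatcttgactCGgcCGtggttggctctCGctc
The *Dlx1* window holds 27 CG dinucleotides and the *Dlx2* window 29, *Six3* has 14 and *Satb1* 8, where the median over 32851 windows of all genes was 7 and over the 30 windows of 22 members 22. The homeodomain core TAATTA, which reads the same on both strands, was in 0 of the 30 windows and in 5.29% of all windows. No overlap with another motif was searched, and nothing follows from this for binding.

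*Dlx* cells differed from the other 53 low-low cells in transmitter genes. This split was chosen after values were seen. *Gad1*, a GABA-synthesising enzyme, ran from 7.19 to 10.42 with a median of 9.42 log2RPM in the 28 *Dlx* cells, and from -0.36 to 10.11 with a median of 6.40 log2RPM in the others. The vesicular GABA transporter *Slc32a1* was expressed in 20 of 28 *Dlx* cells and 4 of 53 others, with means of 3.53 ± 1.67 and -0.23 ± 1.13 log2RPM. The vesicular glutamate transporter *Slc17a6* was the reverse, in 6 of 28 and 45 of 53 cells, with means of 1.00 ± 1.30 and 6.77 ± 3.31 log2RPM. The highest *Slc17a6* value in any *Dlx* cell was 3.72 log2RPM, below the median of 8.54 log2RPM in the others. *Pomc* was also lower in the *Dlx* cells, with a median of 6.49 log2RPM and a highest value of 9.99 log2RPM, beside 7.72 and 11.91 log2RPM. Median depths were 9.23 M reads in *Dlx* cells and 7.64 M in the others.

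**Figure D4:**
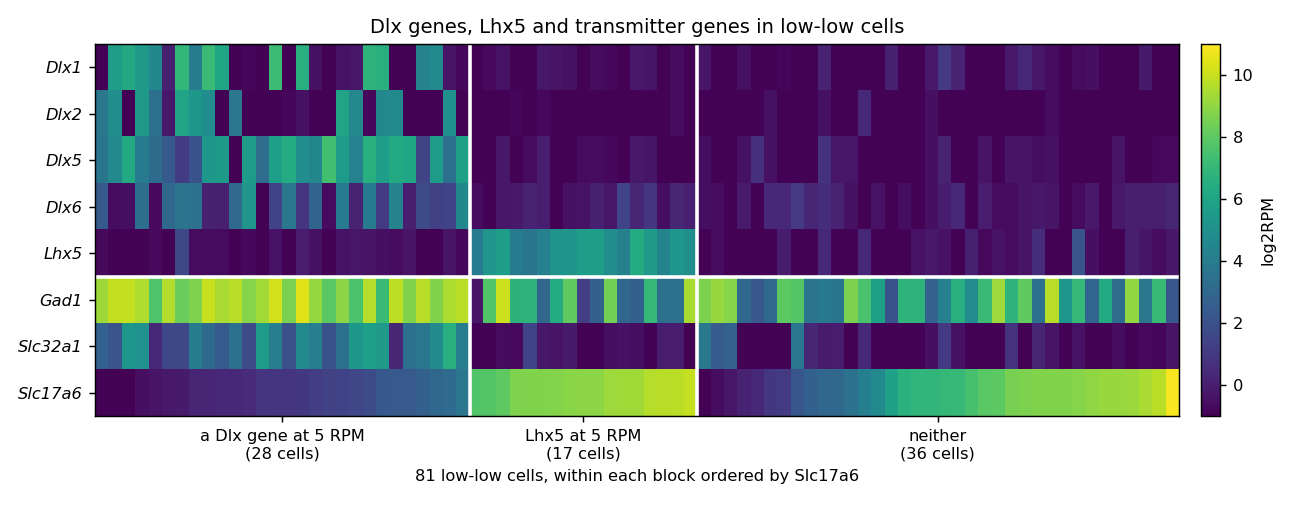
log2RPM (colour) of the 4 *Dlx* genes, *Lhx5* and 3 transmitter genes in the 81 low-low cells, 1 column per cell, in blocks of 28 cells with a *Dlx* gene, 17 with *Lhx5* and 36 with neither. No cell is bright for both a *Dlx* gene and *Lhx5*, and *Slc17a6* is bright in all 17 *Lhx5* cells and at most 3.72 log2RPM in the *Dlx* cells.

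Of the 53 low-low cells without a *Dlx* gene, 17 expressed *Lhx5*. *Lhx5* is a LIM homeodomain factor of the developing forebrain, and it helps to pattern the mammillary part of the hypothalamus. It was expressed in 21 cells, of which 0 of 48 were Agrp-high (which allows a share of up to 6.25%), 4 Pomc-high and 17 low-low. Its difference between Agrp-high and the other cells was -1.06 log2RPM, and -0.99 log2RPM with the *Agrp* limit at 11. Of the 21 cells 0 expressed a *Dlx* gene at 5 RPM, which allows a share of up to 14.3%. All 21 expressed *Slc17a6*, from 6.36 to 9.96 with a median of 8.75 log2RPM, and 0 expressed *Slc32a1*, with the same upper limit. *Gad1* was in 19 of the 21, at a median of 6.76 log2RPM. For comparison, the 36 low-low cells with neither a *Dlx* gene nor *Lhx5* expressed *Slc17a6* in 28, *Slc32a1* in 4 and *Gad1* in 33. Low-low cells thus fell into 28 with a *Dlx* gene, 17 with *Lhx5* and 36 with neither. The overlap of 0 depended on the cut-off, since 10 cells held both at 1 RPM, and on depth, since 1 cell did after thinning to 3 M reads. *Dlx* and *Lhx5* chose the blocks, so that their own pattern between blocks is a description.

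Beside the *Dlx* genes themselves, few members set the *Dlx* cells apart. Of the 30 other members 0 were higher, against 4.44% of genes, and 1 was lower, against 6.26% of genes, namely *Lhx5* with a difference of -1.83 log2RPM. *Six3* was expressed in 16 of 28 *Dlx* cells (57.1%) and 31 of 53 others (58.5%), so the shares of *Six3* cells were close on both sides of the *Dlx* split.

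*Onecut2*, a cut-homeodomain factor known from liver, pancreas and retina, was expressed in 15 cells, of which 12 were low-low. Its difference between Pomc-high and low-low cells was -1.04 log2RPM, with -2.27 log2RPM in the lowest range of cell numbers and -0.46 and -0.48 log2RPM in the others. *Slc17a6* was expressed in 13 of the 15 *Onecut2* cells (86.7%), near its share in low-low cells without a *Dlx* gene (45 of 53, 84.9%). *Zfhx4* was expressed in all 15, from 4.70 to 7.84 log2RPM, and in 60 of the 81 low-low cells. *Onecut2* met *Lhx5* in 5 cells and a *Dlx* gene in 3. *Lhx5*, *Onecut2*, *Pou3f1* and the 4 *Dlx* genes were among the 8 members that reached 7 cells in low-low cells and in neither other set, the number of cells that every gene in the table reaches at 5 RPM overall. As the largest set, low-low cells also had the most chances to reach it. How many of all genes show this pattern was not counted, so the number 8 is no result about the members.

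*Six2* differed from the other members in its small spread. *Six2*, which maintains progenitors in the kidney, lies on chr17:85684277-85688274 (minus strand) near *Six3* (chr17:85613608-85629302, plus strand). It was above the lowest value in every cell, and its mean was 2.93 ± 0.94 log2RPM with 130 cells (79.8%) at 5 RPM or more. Of 2132 genes expressed in 70% to 90% of cells, 0.0938% had a smaller SD. Because its values lay close to the cut-off of 2.32 log2RPM, its share of cells says little. The share was 63 of 66, 11 of 32 and 56 of 65 cells in the ranges of cell numbers, with means of 3.12 ± 0.54, 2.03 ± 0.71 and 3.18 ± 1.09 log2RPM. Its means thus varied more between ranges of cell numbers than between cell sets, where they were 2.74, 3.01 and 3.01 log2RPM in Agrp-high, Pomc-high and low-low cells.

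**Figure D5:**
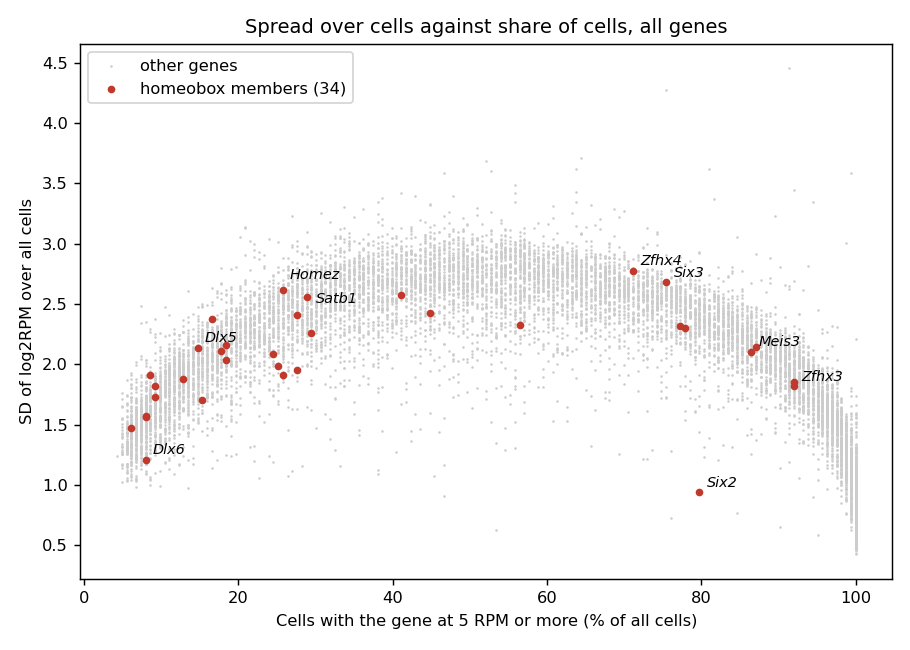
SD of log2RPM over all cells (vertical axis) against the share of cells at 5 RPM or more (horizontal axis, percent) for all 12187 genes, with the 34 homeobox genes in red. *Six2* lies far under the band of genes with a like share, at an SD of 0.94, while *Zfhx4* (2.78) and *Six3* (2.68) have the largest SDs of the members.

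Over cells, members went together only weakly. Among the 20 members expressed in at least 20% of cells, the Spearman correlation over all cells ranged from -0.23 (*Pbx4* with *Tshz2*) to 0.36 (*Six2* with *Tshz2*) in 190 pairs, and 6 of the 8 highest values involved *Six2*. All points share the table's scaling and the ranges of cell numbers, and in counts this sparse such values are no finding. The correlation of *Six2* with its neighbour *Six3* was 0.08. The genes most like *Six2* were *9930111J21Rik2* (correlation 0.78), *Gm17555* (0.73), *Mmp12* (0.71), *Cpa6* (0.71) and *Gm21897* (0.70), and 51 genes reached a correlation of 0.5 with it, against 2 for *Six3* and 0 for *Zfhx3* and *Tshz2*.

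The remaining members showed no difference of 1 or more in either of the comparisons of Agrp-high with all other cells and of Pomc-high with low-low cells. *Pou2f1* and *Pou2f2*, the octamer factors of wide expression and of B cells, were in 48 and 42 cells, *Pou6f1* in 40 and *Pou3f1* in 13 cells. *Pou2f2* came nearest to the limit, 0.97 log2RPM higher in Agrp-high than in all other cells, with 37.5% of the 48 cells against 20.9% of the others. The activity-dependent neuroprotector genes *Adnp* and *Adnp2* were expressed in 67 and 45 cells and together in 20. *Adnp* was among the members with the largest SD, at 2.58 log2RPM. *Hmbox1*, which binds telomeres, was in 73 cells, *Cux2* in 25, *Tshz1* in 29 and *Tshz3* in 10. *Nkx6-2*, a factor of myelinating cells and some neurons, was in 41 cells, and its highest value of 8.83 log2RPM was in a low-low cell with oligodendrocyte markers, where *Mbp*, a myelin protein gene, stood at 14.24 log2RPM.

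Other homeobox genes and cofactors were followed for comparison. Of 14 further homeobox genes measured, from a list of 44, 5 (35.7%) were higher and 0 lower in Agrp-high cells. Over all genes these shares were 8.65% and 2.94%. Among the 5 were *Otp* at 3.05, *Prox1* at 2.98 and *Bsx* at 2.13 log2RPM. In Pomc-high against low-low cells 4 (28.6%) were higher and 0 lower, against 4.5% and 5.1% of all genes. The largest of these differences was that of *Prox1* at 3.25 log2RPM. *Nkx2-1*, which was left out of the members, was expressed in 0 of 48 Agrp-high (up to 6.25%), 28 Pomc-high and 45 low-low cells. The 23 measured cofactors bridge or modify homeodomain complexes. Of them 4 (17.4%, against 8.65% of all genes) were higher in Agrp-high cells and 1 (4.35%, against 2.94%) was lower. The lower was *Lmo1*, a LIM-only protein that competes for the LIM homeodomain partner *Ldb1*, at -2.48 log2RPM. In Pomc-high against low-low cells *Lmo1* was higher by 1.90 log2RPM and *Tle4*, a Groucho-type corepressor, by 1.41 log2RPM.

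Immediate early genes, which report recent activity or stress of dissociation, moved with the same sets. Over all genes, 2.94% were lower and 8.65% higher in Agrp-high cells, and 4.5% higher and 5.1% lower in Pomc-high than in low-low cells. Of the 15 immediate early genes measured, 7 (46.7%) were lower and 1 (6.67%) higher in Agrp-high cells. In Pomc-high against low-low cells 8 (53.3%) were higher and 0 lower. Their summed level ran from 14.3 to 1058 RPM in Agrp-high cells (median 192.0), from 22.4 to 59520 RPM in Pomc-high cells (median 143.6) and from 0.14 to 57035 RPM in low-low cells (median 164.4), so that the medians did not follow the counts. Their part in the differences of the homeobox genes was not tested. For 12 members the annotation has exons of a gene on the opposite strand, such as *Six3os1* for *Six3*, *Dlx1as* for *Dlx1*, *Dlx6os2* for *Dlx6*, *A630075F10Rik* for *Tshz2* and *Gm6934* for *Satb1*. The libraries carry no strand, so reads of these pairs cannot be told apart. Others are *Inpp5a* for *Nkx6-2* and *Cd247* for *Pou2f1*. For 7 members the deposited locus was over 10 kb longer than the annotated gene. The excess was 190.3 kb for *Nkx6-2*, 84.1 kb for *Pou2f1*, 78.7 kb for *Dlx1* and 44.4 kb for *Dlx6*. It was 40.9 kb for *Zfhx4*, 23.5 kb for *Adnp* and 15.9 kb for *Six3*. Whether reads of other genes were counted there was not tested.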

How the data were processed

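Single Pomc-EGFP cells were sequenced as described above. Demultiplexing by the authors used CASAVA 1.7. TopHat2 2.0.11 placed the reads on GRCm38 with Ensembl genes, and Cufflinks 2.2.1 gave counts, which edgeR and limma (versions not given in the sources used here) normalized and corrected for batch. Values were deposited as log2 RPM and used as given. What the correction removed is not given in the sources used here. Its effect was not tested.

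The members and lists were chosen with earlier results of these data known. Linear RPM was 2 to the power of a value. Reads were recovered from steps between low values (of low values, up to 20 reads, 99.3% came out whole with a tolerance of 0.1 reads) for depth and thinning. The depth script was tested on simulated data. Intervals of shares are Clopper-Pearson at 95% and hold counting error alone. No doublet caller was run, as cells had been gated for singlets. No count test was run, since the 163 cells are 1 sample. Gene models were from GENCODE M21, in which all 34 members were found by gene ID, and 12 members had no promoter window. Results of some members are not reported here.

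Genes were named by a rule: a difference of 1 or more with expression in 25% of cells of the higher set, expression in 80% of cells, the 8 largest SDs, all *Dlx*, *Lhx*, *Onecut*, *Meis*, *Pbx*, Pou3f and *Nkx* members with *Six2* and *Six3*, and the highest and lowest correlations. Other members were given as counts and were chosen after their values were seen, as were the cells with precursor markers. Alternatives were 5 RPM added, 0.1 RPM added after the lowest value was taken off, and only genes found in 10% of cells. Others were removal of cells with markers of another type, thinning to 3 M reads and centring on 2711 genes found in 90% of cells. The ranges of cell numbers and other limits for *Agrp*, *Pomc* and expression were also used. The cells removed for 3 markers of another type were the 4 with oligodendrocyte markers. Python 3.11.15 was used with numpy 2.4.6, pandas 2.3.3, scipy 1.17.1 and matplotlib 3.10.9.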

Additional observations from a re-analysis of the deposited data

How the results depend on the processing

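All 188 recomputed differences of members that had differed by 1 or more kept their sign. Each moved by less than 1 SD over cells, which is a wide margin. For *Homez* this SD was 2.62 log2RPM, beside a difference of 1.07 log2RPM between Agrp-high and other cells. That difference ran from 0.46 to 2.75 log2RPM in the ranges of cell numbers. Keeping only genes found in 10% of cells could not move a value. Counts past the limit of 1 depended on the processing. Adding 5 RPM shrinks differences of low genes by construction. With it, 1 member was higher (*Satb1*) and 1 lower (*Zfhx4*) in Agrp-high cells, against 2.33% and 1.07% of all genes. In Pomc-high against low-low cells 1 was higher (*Six3*) and 0 lower, against 1.17% and 0.84%. In *Dlx* cells 0 were lower, against 0.92%. With 0.1 RPM in place of the lowest value, 7 were lower in Pomc-high and 3 in *Dlx* cells, against 9.39% and 11.2% of all genes. With genes in 10% of cells only, 1 was lower in Pomc-high cells, against 5.46% of the genes kept. *Dlx1* and *Onecut2* were then not tested. With centring 3 were lower in *Dlx* cells, against 10.6% of all genes. The median over all genes there moved from 0.00012 to -0.20 log2RPM, while it was 0.14 log2RPM for Agrp-high cells. In Agrp-high cells the numbers higher and lower were 2 and 5 in cells 1 to 66, against 8.60% and 5.97% of all genes. They were 8 and 8 in cells 67 to 98, against 21.3% and 19.5%. In cells from 99 upward they were 4 and 5, against 16.6% and 6.96%. In Pomc-high cells the number lower was 10 and 5 in cells 1 to 66 and 67 to 98, against 10.9% and 17.1% of all genes. In *Dlx* cells the numbers higher and lower, of 30 members, were 5 and 6, 2 and 9, and 1 and 7 in the 3 ranges. The shares of all genes were 8.99% and 18.7%, 23.8% and 17.4%, and 10.5% and 13.4%. Of all genes, up to 23.8% were then called higher, in sets as small as 5 cells. With the *Pomc* limit at 11, 3 were higher, against 3.77% of all genes, and at 13, 5 were lower, against 6.95%. At 1 RPM a cell held a median of 18 members, 10 members were in 80% of cells, 22 Agrp-high or Pomc-high cells and 71 cells in all had a *Dlx* gene, and 10 cells had *Lhx5* and a *Dlx* gene. After thinning 1 cell had both, and 6 cells under 3 M reads were left out. The causes were not tested unless stated. No paired analysis was possible because cells carry no shared replicate numbers. Without animals or plates in the labels, spread between animals cannot be separated from spread between cells. Members at 0 reads in many cells may have been missed, and shares near the cut-off, as for *Six2*, are the least certain.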

Other observations

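The 4 cells with both precursor markers held a homeobox gene that was rare elsewhere. *Pou3f1*, a POU factor known from Schwann cells and early oligodendrocytes, was expressed in all 4, with 4.03 log2RPM in cell 14, 7.87 in cell 25, 7.48 in cell 61 and 2.40 log2RPM in the fourth. It was expressed in 9 of all other cells, over which the mean was -0.47 ± 1.23 log2RPM. *Pou2f1* was expressed in 3 of the 4, at 8.04, 7.81 and 5.04 log2RPM, and in 45 other cells. *Zfhx3* was lower in the 4 cells, from 1.83 to 4.72 log2RPM, than over all cells, where its median was 5.85 log2RPM.

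In these 4 cells *Pdgfra* ran from 8.74 to 11.31 and *Olig1* from 9.42 to 11.42 log2RPM, yet the neuronal gene *Snap25* stood at 6.17 to 9.71 log2RPM. Among the 4 cells with oligodendrocyte markers, *Nkx6-2* was expressed in 3, at 4.58, 4.62 and 8.83 log2RPM, and it was expressed in 41 cells in total. The 4 precursor-marker cells were chosen after values were seen, 3 of them lie among cells 1 to 66, and whether any held RNA of more than 1 cell was not tested.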
